A study of Homo sapiens with 16 samples.

Results

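The 8 genes EEF1B2, PABPC4, EIF3I, EIF4G3, EIF5B, EIF4E2, EIF1B and EIF2D encode factors of translation initiation and elongation, and were followed by ribosome profiling. They were taken by symbol, with the transcript that had the most mRNA-Seq counts for each gene, and make up 8 of the 19044 transcripts that could be joined between the assays. All 8 were among the 10970 transcripts that passed the filter on low counts. EEF1B2 and PABPC4 are known TOP mRNAs, and the other 6 served as the comparison.

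The cells were HEK293T, an established line of human embryonic kidney origin that expresses a viral large T antigen. They were left untreated, treated for 1 hr with 1 µg/ml tunicamycin (Tm), which blocks N-linked glycosylation and so stresses the endoplasmic reticulum, treated with Tm together with 200 nM ISRIB, or treated with 200 nM ISRIB alone. ISRIB is a small molecule that acts on eIF2B and makes cells insensitive to phosphorylation of eIF2α. All cells, untreated included, received cycloheximide before lysis, and each lysate was divided between ribosome-protected fragments (RPFs, Ribo-Seq) and mRNA-Seq, so that 4 treatments with replicates a and b gave 16 libraries. Replicates a and b of a treatment are biological replicates by the study's description. The study asked which mRNAs change in translation under endoplasmic reticulum stress and whether ISRIB reverses this.

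Initiation factors bring the small ribosomal subunit and the initiator tRNA to an mRNA, select the start codon and join the large subunit, and elongation factors then deliver aminoacyl-tRNAs. TOP mRNAs begin with a C at the cap followed by an unbroken pyrimidine tract. Most of them encode ribosomal proteins and elongation factors, and their translation is known to be controlled together through the mTOR kinase.

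The 5′ ends are shown because this tract defines the class. Each line gives 30 bases of RefSeq sequence on GRCh38.p14, of which 8 precede the annotated start and 22 begin at it. Capitals mark a run of C and T that begins with C at the first transcribed base and is at least 5 bases long. The first EEF1B2 window lies at chr2:206159887-206159916 on the plus strand and the second at chr2:206159601-206159630 on the plus strand. The EIF2D window lies at chr1:206612444-206612473 on the minus strand, that of EIF3I at chr1:32222399-32222428 on the plus strand and that of EIF5B at chr2:99337381-99337410 on the plus strand.
EEF1B2: cttcgggtCCTTTTTCCTCTCTTCagcgtg
EEF1B2, other start: gtggccccagcctcgaggccgggcgtcttc
EIF2D: agccgggcCCTTTTCgcggccgggccccag
EIF3I: ccggtcttactcacgttgcggccttcctcg
EIF5B: gagaactcacaccatatgtgtcctgttcca
The run was 16 bases long at this EEF1B2 start and absent from its other start, and it was 7 bases long in EIF2D. Of 10 annotated starts of the 7 members with an entry, 2 held a run, against 4.07% of 35116 starts in the table. Of 18 starts of 11 ribosomal protein genes from the list used below, 8 held a run, in 8 of the genes. PABPC4 has no entry. Which start the HEK293T transcripts use was not tested, and a match describes letters only.

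The levels of the 8 members spanned a wide range. On the scale of CPM (counts divided by the TMM-scaled library size, a share of the library) per kilobase of counted coding sequence, the RPF level in untreated cells was 929 ± 80.0 (SD, n = 2) for EEF1B2 and 797 ± 31.7 for EIF3I. It was 164 ± 4.53 for PABPC4, 135 ± 4.42 for EIF1B, 99.3 ± 6.27 for EIF4E2, 73.6 ± 0.154 for EIF5B, 55.4 ± 1.63 for EIF4G3 and 21.1 ± 0.398 for EIF2D. The mRNA levels per kilobase came in the same order, from 1115 ± 87.9 for EEF1B2 and 555 ± 6.32 for EIF3I down to 63.8 ± 1.39 for EIF4G3 and 60.7 ± 1.97 for EIF2D, and the last 2 differed by less than the sum of their SDs. Translational efficiency (TE), here the RPF CPM divided by the mRNA CPM, was 1.44 ± 0.0407 for EIF3I, 1.28 ± 0.0656 for EIF1B, 1.15 ± 0.0710 for PABPC4 and 1.08 ± 0.0433 for EIF4E2. It was 0.928 ± 0.0761 for EIF5B, 0.869 ± 0.0446 for EIF4G3 and 0.839 ± 0.138 for EEF1B2, which cannot be separated at this spread, and 0.347 ± 0.0178 for EIF2D. EIF2D therefore had the lowest TE of the 8 and EIF3I the highest.

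Depth ranged from 3001612 to 11469150 counts over the Ribo-Seq libraries and from 8466193 to 24499266 over the mRNA-Seq libraries. Members had between 94 RPF counts, for EIF1B in Tm replicate b, and 7957, for EIF3I in untreated replicate b. Replicates correlated over transcripts with r of log2 CPM between 0.9875 and 0.9928 for RPFs and between 0.9904 and 0.9968 for mRNA. The ISRIB mRNA libraries differed from each other in several members, which matters for the mRNA and TE results below. CPM are shares of a library, so a change in total translation cannot be seen in them. EEF1B2 has 8 named pseudogenes, EIF4E2 has 2 and EIF3I has 1, and reads shared with such copies make their levels uncertain.

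Tm lowered the RPFs of both TOP mRNAs and moved the other factors in both directions. EEF1B2 and PABPC4 fell, as did EIF1B, while EIF5B and EIF4E2 rose. The changes were small beside that of ATF4, the transcription factor whose mRNA is translated more under eIF2α phosphorylation through its upstream open reading frames, which rose by 2.69 (SE 0.10) on the log2 scale (adjusted p = 2.5e-18, edgeR quasi-likelihood test).

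EEF1B2 encodes the β subunit of the exchange factor that recharges the elongation factor eEF1A with GTP. Its RPF level was 539 and 609 CPM in untreated replicates a and b, 475 and 456 CPM in Tm, 653 and 620.4 CPM in Tm + ISRIB, and 658 and 658 CPM in ISRIB. Both Tm libraries lay below all the others, which was also so for PABPC4, EIF1B and EIF3I, the last not called. The share of all transcripts whose Tm libraries lie apart from the rest was not counted. Such a lack of overlap, here and below, therefore says nothing particular to the called members. In Tm against untreated cells it fell by 18.9%, a log2 fold change of -0.30 (SE 0.071, adjusted p = 0.0061 in edgeR's quasi-likelihood test).

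PABPC4 encodes a cytoplasmic poly(A)-binding protein, of the family that links the poly(A) tail to the cap-binding complex. Its RPF level was 308 and 321 CPM in untreated cells, 273 and 265 CPM in Tm, 322 and 308 CPM in Tm + ISRIB, and 312 and 339 CPM in ISRIB. Again the Tm libraries were the lowest. The log2 fold change in Tm was -0.23 (SE 0.073, adjusted p = 0.049, edgeR). This call was lost without untreated replicate b (adjusted p = 0.14, edgeR), without Tm replicate a (0.15) or without Tm replicate b (0.24), and also with total-count scaling (0.13) or with only the compared treatments in the fit (0.11).

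EIF5B, the GTPase that joins the ribosomal subunits, had 266 and 265 RPF CPM in untreated cells, 315 and 324 CPM in Tm, 274 and 293 CPM in Tm + ISRIB, and 289 and 267 CPM in ISRIB. Both Tm libraries were above all the others, with a log2 fold change of 0.27 (SE 0.073, adjusted p = 0.019, edgeR) that did not pass without Tm replicate b (adjusted p = 0.13). EIF4E2 binds the cap like eIF4E but does not recruit eIF4G, and is known from translational repression. It had 64.3 and 70.3 RPF CPM in untreated cells, 80.5 and 84.9 CPM in Tm, 67.0 and 69.1 CPM in Tm + ISRIB, and 71.5 and 68.7 CPM in ISRIB. Here too the Tm libraries were the highest. The log2 fold change in Tm was 0.29 (SE 0.097, adjusted p = 0.058, edgeR), and the adjusted p was 0.18 without untreated replicate a, 0.14 without Tm replicate a and 0.28 without Tm replicate b, and 0.13 by DESeq2.

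EIF1B is a paralog of eIF1, which guards start codon selection. Its RPF level was 37.3 and 39.1 CPM in untreated cells, 29.8 and 30.7 CPM in Tm, 35.0 and 36.4 CPM in Tm + ISRIB, and 43.3 and 38.3 CPM in ISRIB. Tm was lowest in both replicates, with a log2 fold change of -0.34 (SE 0.13, adjusted p = 0.097, edgeR), and the adjusted p was between 0.10 and 0.36 in each of the 8 fits that left out 1 replicate, so the call was lost in all of them. It was also lost with RLE or total-count scaling, by DESeq2, with no low-count filter and with only the compared treatments in the fit.

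The remaining 3 factors did not pass the test. EIF3I, a subunit of the eIF3 scaffold, had 752 and 711 RPF CPM in untreated cells and 647 and 702 CPM in Tm, a log2 fold change of -0.12 (SE 0.067, adjusted p = 0.29, edgeR). Its Tm libraries were also the lowest, with 727 and 719 CPM in Tm + ISRIB and 712 and 737 CPM in ISRIB. EIF4G3, a paralog of the eIF4G scaffold, had 261 and 272 CPM in untreated cells and 257 and 274 CPM in Tm, a value of -0.0081 (SE 0.073, adjusted p = 0.96) whose sign depended on the scaling. EIF2D, which can place tRNA on the small subunit without eIF2, had 36.2 and 35.2 CPM in untreated cells and 33.3 and 42.1 CPM in Tm, a value of 0.062 (SE 0.13, adjusted p = 0.82). The Tm libraries of EIF2D fell on either side of the untreated ones.

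**Figure D1:**
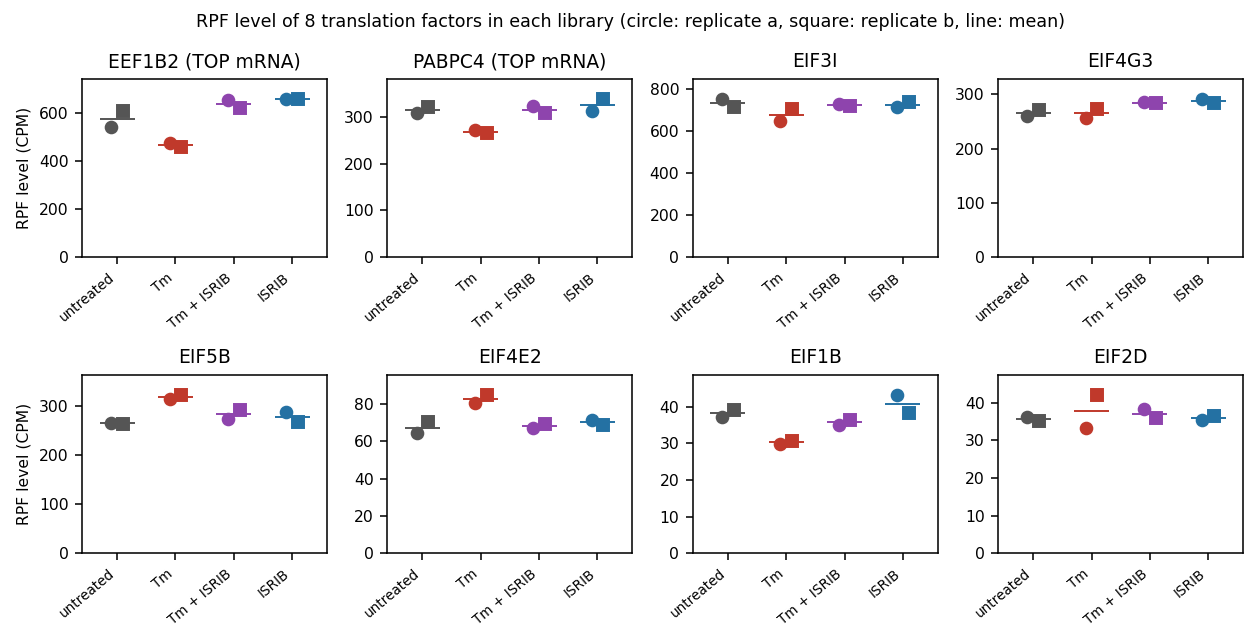
RPF level in CPM (vertical axis, from 0) of each member in each library by treatment, with replicate a as a circle, replicate b as a square and the mean as a line. Both Tm libraries of EEF1B2 (475 and 456 CPM) and PABPC4 (273 and 265 CPM) lie below the other 6. So do those of EIF1B (29.8 and 30.7 CPM) and of EIF3I (647 and 702 CPM), which was not called. Those of EIF5B (315 and 324 CPM) and EIF4E2 (80.5 and 84.9 CPM) lie above the other 6.

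In all, 5 of the 8 members were called at a false discovery rate (FDR) of 0.1 in Tm against untreated cells, 2 of them up, where 6.33% of all tested transcripts were called up, and 3 of them down, where 7.21% were called down. The median log2 fold change was -0.063 over the members and -0.0080 over all tested transcripts. Scaling by total counts changed the calls over all transcripts from 694 up and 791 down to 1069 up and 539 down. An exact permutation test of 2 libraries against 2 cannot give a p below 0.33, so single-gene tests rest on the spread shared across transcripts.

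The known TOP mRNAs that encode ribosomal proteins fell as well. All 13 of the 13 on the list fell in RPFs in Tm, with log2 fold changes from -0.82 for RPS27 to -0.34 for RPL15 and a median of -0.47, beside -0.30 and -0.23 for EEF1B2 and PABPC4. The difference between these values was not tested. Of 17 other regulators of translation, 3 were called, 2 up and 1 down. Over all tested transcripts 1485 of 10970 were called, 6.33% up and 7.21% down, so this count says nothing particular to the regulators. Among the 3 called regulators was PPP1R15B, the constitutive subunit that directs a phosphatase to eIF2α. It rose with a log2 fold change of 0.71 (SE 0.10, adjusted p = 2.1e-05, edgeR). The median over these 17 was 0.095.

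With ISRIB added to Tm, the RPFs of both TOP mRNAs were higher than in Tm alone and those of EIF4E2 were lower. EEF1B2 rose with a log2 fold change of 0.45 (SE 0.071, adjusted p = 5.0e-05, edgeR), or 36.7%, and was called in every alternative fit run. PABPC4 rose with 0.23 (SE 0.074, adjusted p = 0.042, edgeR) and EIF4E2 fell with -0.28 (SE 0.10, adjusted p = 0.067, edgeR). The libraries of the compared treatments did not overlap in any member but EIF2D, called or not, and the share over all transcripts was not counted. The lack of overlap therefore says nothing particular to PABPC4 and EIF4E2. Both calls were lost without Tm replicate a (adjusted p = 0.12 for PABPC4 and 0.14 for EIF4E2, edgeR), without Tm replicate b (0.21 and 0.28) or without Tm + ISRIB replicate a (0.26 and 0.27), and that of EIF4E2 also without Tm + ISRIB replicate b (0.14) and by DESeq2 (0.17). That of PABPC4 was also lost with total-count scaling (adjusted p = 0.10, edgeR).

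The other 5 members were not called in this comparison. EIF5B had a log2 fold change of -0.17 (SE 0.074, adjusted p = 0.13, edgeR) and EIF1B of 0.24 (SE 0.14, adjusted p = 0.26). An untreated replicate enters this comparison only through the shared spread and the scaling. Without untreated replicate a the log2 fold change of EIF5B was -0.17, and without untreated replicate b it was -0.18. EIF5B was called with total-count scaling (-0.22, adjusted p = 0.046, edgeR) and with only the compared treatments in the fit (adjusted p = 0.084, edgeR). EIF3I had 727 and 719 RPF CPM in Tm + ISRIB and a value of 0.10 (SE 0.067, adjusted p = 0.35). EIF4G3 had 285 and 284 CPM and 0.10 (SE 0.074, adjusted p = 0.39). EIF2D had 38.3 and 35.9 CPM and -0.0052 (SE 0.13, adjusted p = 0.99). Thus 2 of 8 members were called up, beside 9.53% of all tested transcripts, and 1 of 8 down, beside 8.20%. Over all transcripts 1045 were called up and 900 down, and with total-count scaling 793 up and 1316 down. All 13 ribosomal protein mRNAs rose, with log2 fold changes from 0.30 to 0.99.

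Cells with both Tm and ISRIB showed no called RPF change against untreated cells in any member. The log2 fold changes lay between -0.098 for EIF1B and 0.15 for EEF1B2 (SE 0.07, adjusted p = 0.33, edgeR). Of all tested transcripts 2.65% were called, and DESeq2 called 0 members. An unadjusted p under 0.05 was found for 1 member and for 1453 of all 10970 transcripts. Without untreated replicate b, EEF1B2 was called (adjusted p = 0.095, edgeR), the lone untreated library being taken to vary like the other groups. For PABPC4 the value was 0.0016 (SE 0.070), which puts the 95% interval within 0.14 of it on the log2 scale. The comparisons against untreated cells use the same untreated libraries, so their values are not independent of each other.

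ISRIB alone moved no member past the threshold either. EEF1B2 had the highest value, 0.20 (SE 0.069, adjusted p = 1.0, edgeR, and 0.080 without untreated replicate b), and the others lay between -0.014 and 0.11. In RPFs 0.0182% of all transcripts were called and DESeq2 called 0 members. An unadjusted p under 0.05 was found there for 1 member and 471 of 10970 transcripts. For mRNA 1.15% of all transcripts and 0 members were called, and for TE 0.191% and 0 members, with 0 members called by DESeq2 in each. In each of these 1 member had an unadjusted p under 0.05, beside 1584 of 10970 transcripts for mRNA and 975 for TE.

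Whether the Tm effect on RPFs differed with and without ISRIB was tested as an interaction, the Tm effect without ISRIB minus that with ISRIB. It was called in 0 of 8 members by edgeR and by DESeq2, which gave no adjusted p for 2 of them, and in 6.90% of all transcripts. At an unadjusted p under 0.05 there were 2024 of all 10970 transcripts and 3 members. These were EEF1B2 with -0.25 (SE 0.099, adjusted p = 0.15, edgeR), EIF4E2 with 0.33 (SE 0.14, adjusted p = 0.19) and EIF5B with 0.24 (SE 0.10, adjusted p = 0.21). PABPC4 had -0.18 (SE 0.10, adjusted p = 0.36). The threshold was passed by EEF1B2 without untreated replicate a (adjusted p = 0.025, edgeR) and by EIF4E2 without untreated replicate b (adjusted p = 0.087, edgeR).

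Relative to the other factors of the same library, both TOP mRNAs were lowest in Tm in RPFs. The log2 ratio of the EEF1B2 RPF level to the geometric mean of the other 6 factors was 2.07 and 2.22 in untreated cells, 1.90 and 1.73 in Tm, 2.32 and 2.23 in Tm + ISRIB, and 2.26 and 2.31 in ISRIB. That of PABPC4 was 1.26 and 1.30 in untreated cells, 1.10 and 0.94 in Tm, 1.30 and 1.22 in Tm + ISRIB, and 1.19 and 1.36 in ISRIB. For both genes the Tm libraries did not overlap with the rest, and this ratio does not depend on library scaling. No such ratio was taken for any other factor, and the share of all transcripts without overlap was not counted. EIF1B, which is among the other 6, had an RPF log2 fold change in Tm of -0.34, beside -0.30 for EEF1B2 and -0.23 for PABPC4. The ratios therefore do not show a drop particular to TOP mRNAs. In mRNA the Tm ratios lay above the untreated ones for EEF1B2 and below them for PABPC4. The EEF1B2 ratio was 2.36 and 2.17 in untreated cells and 2.62 and 2.58 in Tm, while that of PABPC4 was 0.98 and 0.88 in untreated cells and 0.57 and 0.61 in Tm.

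**Figure D2:**
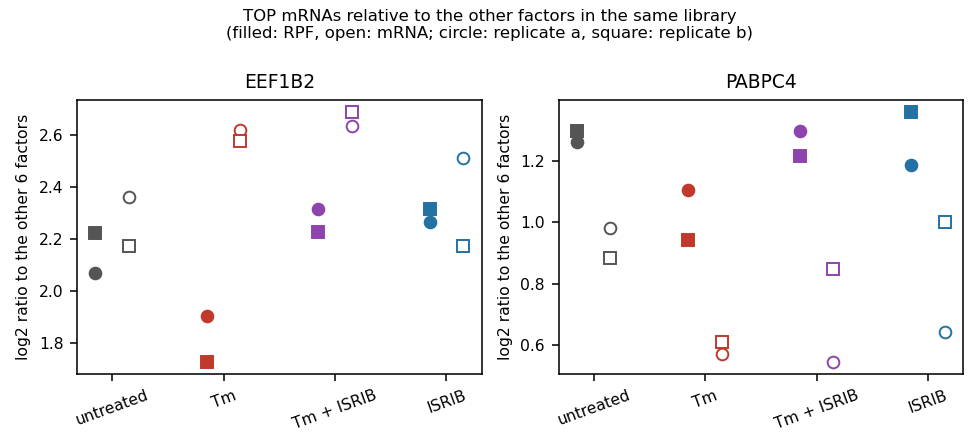
Log2 ratio of EEF1B2 (left) and PABPC4 (right) to the geometric mean of the other 6 factors in the same library, by treatment, with RPFs filled, mRNA open, replicate a as circles and replicate b as squares. The RPF ratios in Tm (1.90 and 1.73 for EEF1B2, 1.10 and 0.94 for PABPC4) are the lowest, and the mRNA ratios in Tm lie above the untreated ones for EEF1B2 and below them for PABPC4.

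Among named transcripts, the RPF levels most like that of EEF1B2 over the 8 Ribo-Seq libraries were those of RPS27 (Pearson r of log2 CPM 0.964), WLS (0.954) and RPL14 (0.951). For PABPC4 they were CRTAP (0.966), MTMR14 (0.961) and NRP2 (0.958). These are the highest of 1828 transcripts over 8 libraries that share 4 treatments, and are given as a description.

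In mRNA, EEF1B2 and EIF3I rose in Tm and EIF5B fell. EEF1B2 had 727 and 650.5 mRNA CPM in untreated cells, 882 and 856 CPM in Tm, 890.1 and 882 CPM in Tm + ISRIB, and 815 and 690.5 CPM in ISRIB. EIF3I had 514 and 505 CPM in untreated cells, 707 and 656 CPM in Tm, 653 and 631 CPM in Tm + ISRIB, and 619 and 562 CPM in ISRIB. EIF5B had 271 and 303 CPM in untreated cells, 198 and 233 CPM in Tm, 209.7 and 161 CPM in Tm + ISRIB, and 261 and 292 CPM in ISRIB. In every member, called or not, the libraries with Tm, alone or with ISRIB, did not overlap with the untreated ones. The share of all transcripts without such overlap was not counted. The log2 fold changes in Tm were 0.33 (SE 0.088, adjusted p = 0.063, edgeR) for EEF1B2, 0.42 (SE 0.072, adjusted p = 0.022) for EIF3I and -0.41 (SE 0.12, adjusted p = 0.086) for EIF5B, and 11.0% of all transcripts were called.

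The mRNA of PABPC4 had 279 and 266 CPM in untreated cells, 213 and 219 CPM in Tm, 209 and 246 CPM in Tm + ISRIB, and 223 and 307 CPM in ISRIB. The Tm libraries were below the untreated ones, but the log2 fold change of -0.34 (SE 0.13, adjusted p = 0.14, edgeR) was not called, and the ISRIB libraries spanned both. The other 4 members were not called either. Their values were 0.32 (SE 0.11, adjusted p = 0.11) for EIF4E2, 0.19 (SE 0.068, adjusted p = 0.13) for EIF2D, -0.31 (SE 0.17, adjusted p = 0.28) for EIF1B and -0.18 (SE 0.099, adjusted p = 0.29) for EIF4G3.

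A difference between the ISRIB mRNA libraries ran along with these changes. The log2 ratio of replicate a to replicate b in ISRIB mRNA had the same sign as the Tm change in 8 of 8 members, from -0.64 for EIF1B and -0.46 for PABPC4 to 0.24 for EEF1B2 and 0.36 for EIF4E2, whereas the same ratio in RPFs lay between -0.12 and 0.18. The share of all transcripts with the same sign was not counted, so the 8 of 8 says nothing particular to the members. The part of this library difference in the mRNA and TE results was not tested. Without ISRIB replicate a, or without ISRIB replicate b, 8 of 8 members were called in mRNA in Tm, and without untreated replicate b, Tm replicate a or Tm replicate b 0 of 8 were called by edgeR, and without untreated replicate a 1 of 8. These counts went with those over all transcripts, of which 2917 and 2894 of 10970 were called without ISRIB replicate a or b, 0 without untreated replicate b or either Tm replicate, and 212 without untreated replicate a, so they say nothing particular to the members.

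**Figure D3:**
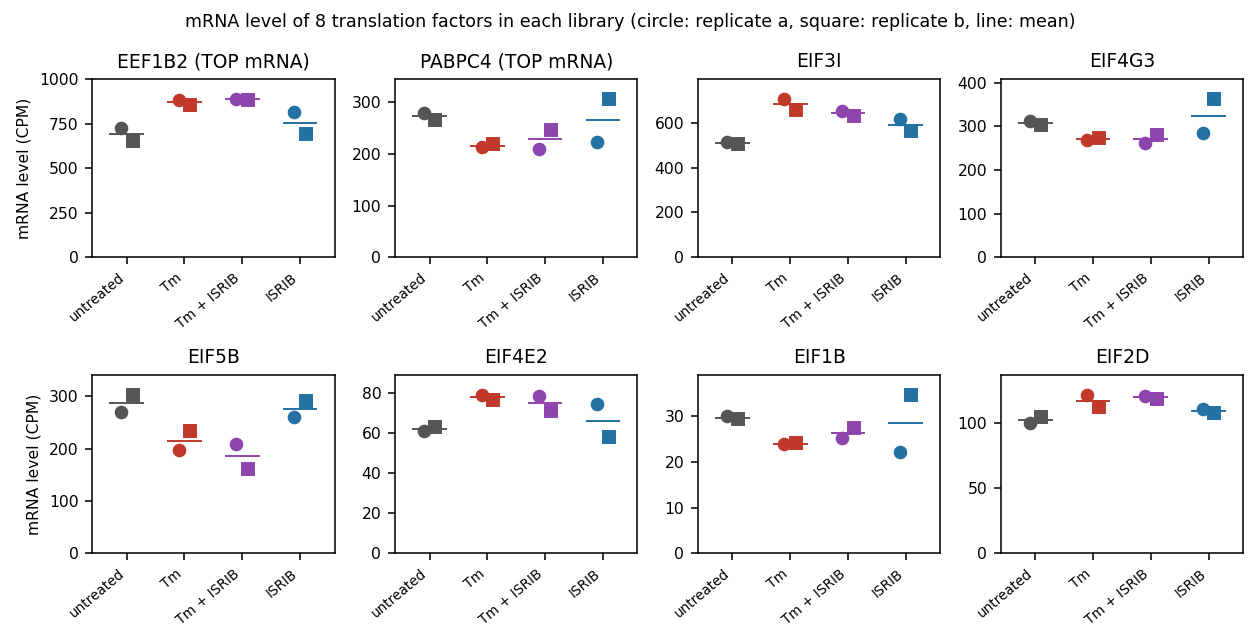
mRNA level in CPM (vertical axis, from 0) of each member in each library by treatment, with replicate a as a circle, replicate b as a square and the mean as a line. The ISRIB replicates of PABPC4 (223 and 307 CPM) are farther apart than its Tm replicates (213 and 219 CPM).

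Changes in mRNA were also called in Tm + ISRIB against untreated cells, which uses the same untreated libraries as the comparison of Tm, so the 2 are not independent. Tm + ISRIB against ISRIB alone was not fitted as its own comparison. The interaction for mRNA, the Tm effect without ISRIB minus that with ISRIB, was called by edgeR in 0 of 8 members and 0 of 10970 transcripts. At an unadjusted p under 0.05 there were 1 member and 956 transcripts. Against untreated cells, Tm + ISRIB gave called mRNA log2 fold changes of 0.36 (SE 0.088, adjusted p = 0.042, edgeR) for EEF1B2, 0.33 (SE 0.072, adjusted p = 0.033) for EIF3I, -0.63 (SE 0.12, adjusted p = 0.024) for EIF5B and 0.22 (SE 0.066, adjusted p = 0.070) for EIF2D, 4 of 8 members beside 14.2% of all transcripts. Between 0 and 7 members were called when 1 replicate was left out, with 0 without untreated replicate b or without Tm + ISRIB replicate b, 1 without Tm + ISRIB replicate a, 2 without untreated replicate a and 7 without either ISRIB replicate. Over all 10970 transcripts the same fits called 0 and 226, then 31, 362, and 3287 or 3302. The EIF2D call was lost with total-count scaling (adjusted p = 0.10, edgeR), by DESeq2 (0.16) and in the 6 fits without an untreated, Tm or Tm + ISRIB replicate (0.11 to 0.34). Between Tm + ISRIB and Tm, edgeR called 0 members and 0.00% of all transcripts, with 0 members and 198 transcripts at an unadjusted p under 0.05, and DESeq2 called 0 of either.

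Changes in TE were tested as the treatment by assay interaction. In Tm the TE of EEF1B2 and EIF3I fell, that of EIF5B rose, and that of PABPC4 was not called. The TE of EEF1B2 was 0.741 and 0.936 in untreated cells, 0.539 and 0.533 in Tm, 0.734 and 0.703 in Tm + ISRIB, and 0.808 and 0.953 in ISRIB. Tm was lowest, with a log2 fold change of -0.64 (SE 0.12, adjusted p = 0.0022, edgeR) in which a lower RPF and a higher mRNA level both counted. The TE of PABPC4 was 1.10 and 1.20 in untreated cells, 1.28 and 1.21 in Tm, 1.54 and 1.25 in Tm + ISRIB, and 1.40 and 1.11 in ISRIB. These values overlapped between ISRIB and the others, and the log2 fold change in Tm was 0.11 (SE 0.15, adjusted p = 0.70), its RPF and mRNA levels having moved the same way. Whether the TE changes of the 2 genes differ from each other was not tested.

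EIF3I and EIF5B were the other members called in TE. EIF3I had a TE of 1.46 and 1.41 in untreated cells, 0.914 and 1.07 in Tm, 1.11 and 1.14 in Tm + ISRIB, and 1.15 and 1.31 in ISRIB, a log2 fold change of -0.54 (SE 0.10, adjusted p = 0.0027, edgeR) in Tm, while its RPF change was not called. EIF5B had a TE of 0.982 and 0.874 in untreated cells, 1.59 and 1.39 in Tm, 1.31 and 1.82 in Tm + ISRIB, and 1.10 and 0.916 in ISRIB, a log2 fold change of 0.68 (SE 0.15, adjusted p = 0.0064, edgeR) that did not pass without Tm replicate a (adjusted p = 0.11). In all, 3 of 8 members were called in TE in Tm, beside 15.9% of all transcripts, and 11 of the 13 ribosomal protein mRNAs, all 11 down. The values of EIF4G3, EIF4E2, EIF1B and EIF2D lay between -0.13 and 0.17 and were not called.

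With ISRIB added to Tm, the TE of EEF1B2 rose with a log2 fold change of 0.42 (SE 0.12, adjusted p = 0.055, edgeR), 1 of 8 members beside 6.11% of all transcripts, and this call was lost without either Tm replicate or either Tm + ISRIB replicate (adjusted p between 0.19 and 0.35). EIF3I had 0.19 (SE 0.10, adjusted p = 0.36) and EIF5B 0.049 (SE 0.15, adjusted p = 0.90). Against untreated cells, Tm + ISRIB gave a TE change of 0.73 (SE 0.15, adjusted p = 0.0074, edgeR) for EIF5B and -0.35 (SE 0.10, adjusted p = 0.050) for EIF3I, 2 of 8 members beside 8.96% of all transcripts. These values share their untreated libraries with those for Tm. The EIF5B call was lost without untreated replicate b (adjusted p = 0.16), and that of EIF3I without either untreated or either Tm + ISRIB replicate (adjusted p between 0.16 and 0.36).

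**Figure D4:**
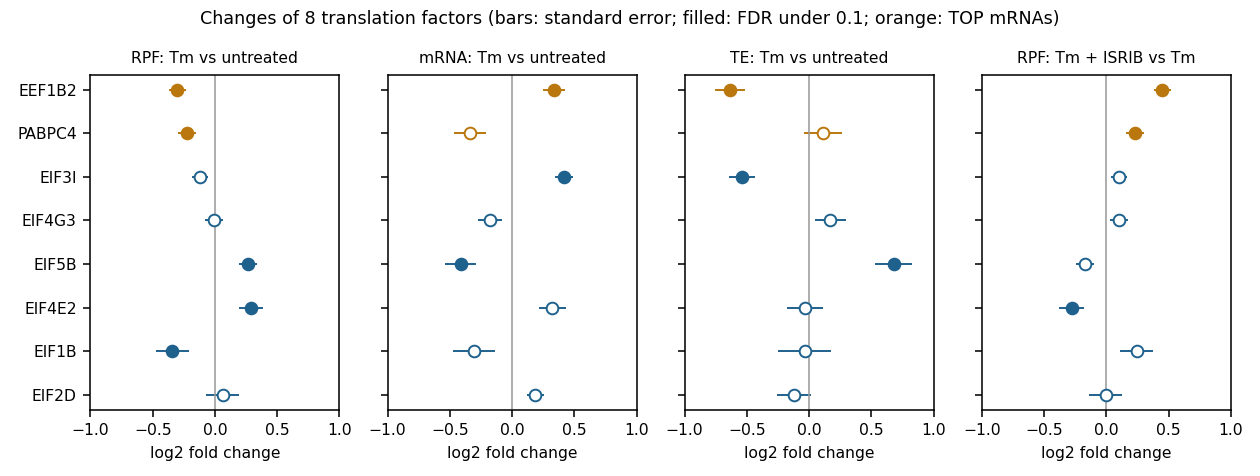
Log2 fold change with its standard error (horizontal axis) of each member for RPFs, mRNA and TE in Tm against untreated cells and for RPFs in Tm + ISRIB against Tm, with filled points at FDR under 0.1 and the TOP mRNAs in orange. EEF1B2 falls in RPFs (-0.30) and TE (-0.64) but rises in mRNA (0.33), while for PABPC4 the RPF change is called (-0.23) and the TE value (0.11) is not.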

How the data were processed

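HEK293T cells were profiled by Ribo-Seq and mRNA-Seq in 4 treatments with 2 replicates each, grouped by the sample labels. The authors deposited raw read counts per UCSC transcript, taken within its coding sequence, without normalization and with replicates apart. The submitters' processing notes name CASAVA 1.8, Bowtie 1.0.0, TopHat2 2.0.7 and 2.0.10 and hg19, with no roles. How reads shared between isoforms, or between genes and pseudogenes, were assigned is not given in the sources used here, and PCR copies cannot be told from separate fragments. For the members, 20 codons of the coding sequence in GENCODE v29 were left out of the counted length.

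Identifiers were matched without version and with equal counted length, which joined 19044 of 21520 Ribo-Seq transcripts. Symbols were read from a table of the study that is held in part, and 1874 of 1998 readable symbols were joined. Symbols that a spreadsheet had turned into dates were left out of the search for like transcripts. The members, lists and tests were chosen with earlier results of these data known. Values named are those of all 8 members, of listed regulators called in RPFs in Tm, and of ATF4 as a known target, except that the values of some listed regulators are not reported here.

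Transcripts were kept by filterByExpr with a minimum count of 10 in both assays (10970). edgeR 4.0.16 in R 4.3.3 fitted a quasi-likelihood model to the libraries of each assay, with TMM scaling within the assay, and the treatment by assay interaction over 16 libraries for TE. p-values were adjusted by Benjamini-Hochberg within a comparison at an FDR of 0.1, and SE was obtained from the log2 fold change and the F statistic, as their quotient after taking the root of F. The common biological coefficient of variation was 5.62% for RPFs and 6.70% for mRNA. The alternatives were RLE and total-count scaling, DESeq2 1.42.0, other filters, a replicate block, fits of the compared treatments alone and leaving out each replicate. Sequences are from RefSeq.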

Additional observations from a re-analysis of the deposited data

How the results depend on the processing

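Alternatives to the edgeR fit were run for the called counts and for each member. With 5 of 8 members called in RPFs in Tm against untreated cells, 3 were called with total-count scaling, 3 with DESeq2 and 3 with only the compared treatments in the fit, and the cause was not tested. Over all 10970 transcripts these RPF calls went from 1485 to 1608, 744 and 1209, in the same order. In mRNA in Tm the count of 3 members became 5 with no low-count filter, where 1508 of 14187 transcripts were called. With only the compared treatments it became 8, while the calls over all 10970 transcripts went from 1209 to 3162. In Tm + ISRIB against untreated cells the count of 4 became 7 with only the compared treatments. The calls over all transcripts there went from 1558 to 2952. Leaving out 1 replicate, from both assays, gave ranges of 1 to 4 members (RPF, Tm against untreated), 1 to 4 (RPF, Tm + ISRIB against Tm), 0 to 1 (RPF, Tm + ISRIB against untreated, ISRIB against untreated, and the interaction), 0 to 8 (mRNA, Tm), 0 to 7 (mRNA, Tm + ISRIB against untreated), 2 to 3 (TE, Tm), 0 to 1 (TE, Tm + ISRIB against Tm) and 0 to 3 (TE, Tm + ISRIB against untreated).

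The deviations of same-letter replicates from their group means had correlations of mixed sign, from -0.155 to 0.203 for RPFs and from -0.298 to 0.615 (Tm + ISRIB with ISRIB) for mRNA, and not all were above 0.1, so the letters were not taken to pair samples. The replicate block gave 4 members called in RPFs in Tm, EIF1B being lost, and 5 in mRNA. Over all 10970 transcripts it called 1520 in RPFs and 1780 in mRNA in Tm. With the letters crossed, an alternative chosen after seeing the data, 7 members were called in mRNA in Tm + ISRIB against untreated cells. That fit called 4103 of all 10970 transcripts.

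Single values kept their direction and their side of the threshold in 677 alternatives, 72 were no longer called, 27 became called and 20 changed sign, all of them values that were not called. In RPFs in Tm, EIF4G3 became 0.0011 with RLE size factors, 0.044 with total-count scaling and 0.00093 with DESeq2, and in TE in Tm total-count scaling gave 0.062 for EIF4E2 and 0.060 for EIF1B. PABPC4 became -0.0040 in RPFs in Tm + ISRIB against untreated cells with no low-count filter. Leaving out 1 replicate in turn gave RPF values in Tm from -0.053 to 0.040 for EIF4G3 and from -0.10 to 0.24 for EIF2D, and in Tm + ISRIB against Tm from -0.18 to 0.16 for EIF2D. In RPFs in Tm + ISRIB against untreated cells the range was -0.032 to 0.035 for PABPC4, -0.055 to 0.024 for EIF3I and -0.048 to 0.083 for EIF4E2. In TE in Tm it was -0.093 to 0.033 for EIF4E2, -0.085 to 0.026 for EIF1B and -0.35 to 0.11 for EIF2D. Of 16 untreated levels per length, 14 moved by less than 1 SD with total-count scaling, and those of EIF3I in mRNA (563.8 CPM per kilobase) and EIF5B in RPFs (73.27) moved by more.

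Over all transcripts, the RPF count in Tm was 1485 by edgeR and 744 by DESeq2, and the mRNA count was 1209 and 694, or 3162 with only the compared treatments. EIF1B and EIF2D, with the fewest RPF counts of the members, had the largest SE in RPFs in Tm against untreated cells (0.13 each).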
